A study of Mus musculus with 35 samples.

Results

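The time of day at which lung messenger RNA was sampled was compared in mice treated with anti-Ly6G, an antibody (clone 1A8) against a surface protein of mouse neutrophils. The comparison sets 7 lungs taken at ZT16 against 7 taken at ZT4, which makes 14 of the 35 libraries of the series, chosen by their antibody, time and batch labels. ZT counts the hours after lights on, so ZT16 falls in the dark, active phase of a mouse and ZT4 in its light, resting phase. All 14 mice were wild type males of 7 to 9 weeks that had received 3 µg of anti-Ly6G per g of body weight under the skin on 2 consecutive days. Their left lobes were perfused with PBS and taken on the next day, every one at the same clock time in the morning. ZT16 mice had been kept in cabinets with inverted light and ZT4 mice under the usual light cycle, so time of day and housing cannot be told apart. Each time held 4 mice of a September 2017 batch and 3 of a July 2017 batch. Another 7 ZT16 and 7 ZT4 mice of the same batches, wild type as well, received the same dose of control IgG and are used only to set the time change beside that of mice without the antibody. The remaining 7 libraries, from mice given diphtheria toxin, were left out of the comparison and entered an alternative fit of all 35 libraries.

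The circadian clock of a cell is a loop of transcription factors. The activators BMAL1 (gene Arntl) and CLOCK or NPAS2 bind E-boxes and drive the Per and Cry genes, whose proteins then block them. REV-ERB repressors (Nr1d1, Nr1d2) and ROR activators such as Rora compete for ROR elements, and the PAR bZIP factors DBP, TEF and HLF compete with NFIL3 for D-boxes. In the mouse lung this loop is known to run in club cells, alveolar cells and vessels, and to time the entry of leukocytes.

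All values are the deposited normalised expression values, which carry an unknown read depth, and changes are differences of log2(value + 0.5), ZT16 minus ZT4, from limma with a batch term. The libraries had close totals and between 15351 and 15802 genes at or above a value of 1. The lobes carried the defining genes of lung. Sftpc of alveolar type 2 cells was at 14896 to 19991 in ZT16 lungs and 14380 to 17037 in ZT4 lungs, and Scgb1a1 of club cells at 22013 to 32697 in ZT16 lungs and 26093 to 31374 in ZT4 lungs. The endothelial gene Pecam1 was at 578 to 788 in ZT16 lungs and 574 to 748 in ZT4 lungs, while the liver gene Alb stayed below 1.51 in all 14. Ly6g itself was below the filter, with a median of 0.0986 in anti-Ly6G and 0.0815 in control lungs at ZT16, and 0.303 in anti-Ly6G and 0.435 in control lungs at ZT4. No gene passed between anti-Ly6G and control mice at ZT16 (0 called by limma, 0%; 636, or 3.81%, at an unadjusted p under 0.05) or at ZT4 (0 called, 0%; 1116, or 6.68%, unadjusted). The calprotectin gene S100a8 was at 3.36 to 6.12 in anti-Ly6G and 3.05 to 22.0 in control lungs at ZT16, with a change of -1.14 (adjusted p = 0.978). At ZT4 it was at 4.88 to 12.5 in anti-Ly6G and 6.23 to 197 (median 10.9) in control lungs. Its change there was -1.18 (adjusted p = 0.713), so depletion of neutrophils is known here from the labels and not from a gene that passed.

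Cytosolic chaperones and flavin monooxygenases leaned upward in ZT16 lungs, with 18 of 26 and 4 of 5 genes tested passing as higher and 0 and 0 as lower. Clock genes moved both ways, Cry1 and Per2 upward and Nr1d1 and Dbp downward, as did glutathione transferases. Lists with many falls were B cell genes (20 of 23 fell and 1 rose), MHC class II genes (7 of 12 and 0), collagens (11 of 22 and 2) and mesothelial genes (10 of 17 and 0). Of 16226 genes tested, 3073 (18.9%) passed an adjusted p of 0.05, 1595 (9.83%) higher and 1478 (9.11%) lower at ZT16. Most changes were small. The median absolute change of the called genes was 0.336 on the log2 scale, 2530 of them changed by under 1.5-fold, and 91 (0.561%) by over 2-fold, 44 upward and 47 downward. Over all genes tested the median change was -0.01, against which the medians of gene lists below can be read. In 869 genes (5.36%) the 7 ZT16 values did not overlap the 7 ZT4 values, 524 (3.23%) with ZT16 above and 345 (2.13%) with ZT16 below, and 864 of the 869 were called. The first principal component, with 26.8% of the variance, ran from 8.86 to 22.0 in ZT16 lungs and from -25.3 to -5.74 in ZT4 lungs, so both times stood on their own side.

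**Figure D1:**
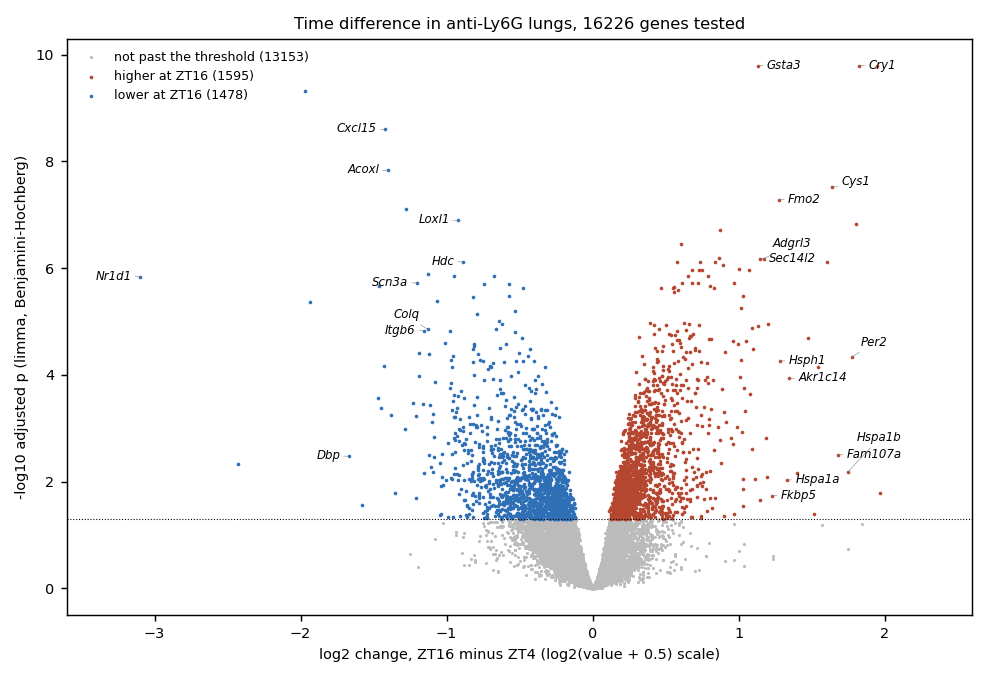
Each point is one of 16226 genes, with its log2 change (ZT16 minus ZT4, n = 7 mice each) on the horizontal axis and the -log10 of its limma adjusted p on the vertical axis; red genes (1595) were higher and blue genes (1478) lower at ZT16, and the dotted line is the threshold of 0.05. Labels mark some members of the 15 largest rises and falls of well expressed genes with a change beyond 1.1 or an adjusted p under 1e-06; Cry1 and Gsta3 lie toward the top right, and Nr1d1 lies farthest to the left.

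Clock genes held some of the largest changes. Cry1 (ENSMUSG00000020038, GRCm38 chromosome 10, 85131700 to 85185064), which encodes a repressor of BMAL1, had 39.4 to 51.3 (median 48.3) in ZT16 lungs, against 11.2 to 15 (median 12.6) in ZT4 lungs. The lowest ZT16 lung lay far above the highest ZT4 lung. Its change was 1.83 ± 0.08 (SE; adjusted p = 1.6e-10), a 3.54-fold difference, with 1.74 in September and 1.93 in July. Per2, its partner in repression, had 129 to 188 (median 159) in ZT16 lungs, against 25.1 to 77.7 (median 52.1) in ZT4 lungs. Its groups did not overlap either (1.77 ± 0.22 SE, adjusted p = 4.62e-05). In the opposite direction, Nr1d1 (REV-ERBα, ENSMUSG00000020889, GRCm38 chromosome 11, 98767932 to 98775333) had 13.4 to 59.0 (median 25.9) in ZT16 lungs, against 137 to 369 (median 303) in ZT4 lungs. Every ZT16 lung was below every ZT4 lung, with a change of -3.10 ± 0.28 (SE; adjusted p = 1.44e-06), -2.64 in September and -3.71 in July. This was the largest fall among well expressed genes with a usual symbol. Another gene overlaps 263 exon bases of Nr1d1, and since nothing states that reads were counted by strand, such values are uncertain.

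**Figure D2:**
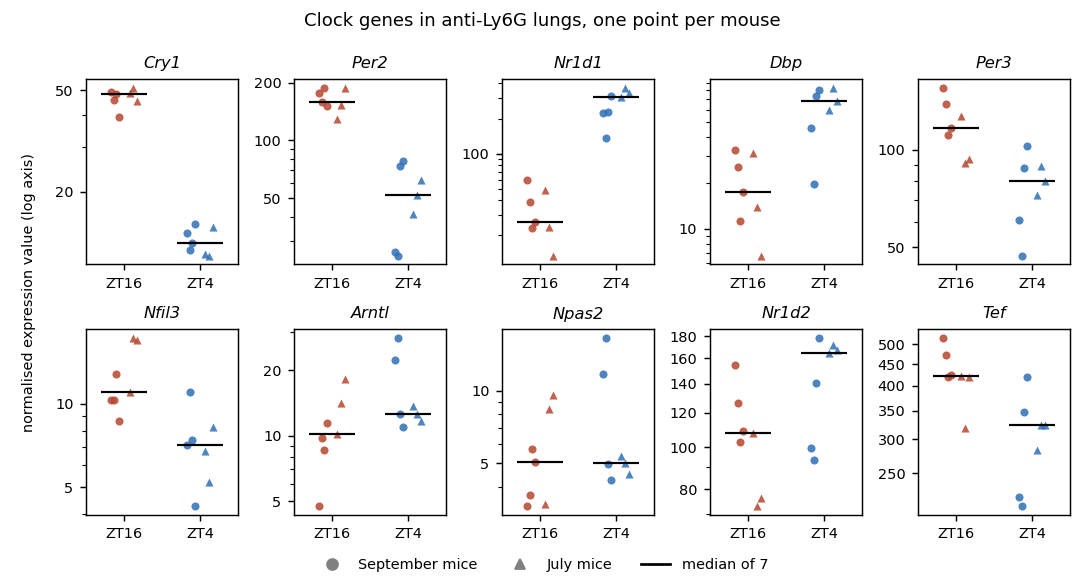
Each point is one mouse, with the normalised expression value on a logarithmic vertical axis that differs between genes; circles are September mice, triangles July mice, and the black line is the median of 7. Cry1, Per2 and Nr1d1 separate ZT16 from ZT4, whereas Arntl, Npas2 and Nr1d2 overlap and a pair of September ZT4 mice stands apart from the other 5 ZT4 mice in them.

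Upstream bases of clock genes on either side of the time difference are given because the loop acts through short elements close to the start of transcription. They are the 250 bases before the start in RefSeq (GRCm38.p6), read 5′ to 3′ on the strand of the gene, with any E-box, D-box, ROR element core or heat shock element in capitals. Cry1 (chr10:85185055-85185304, minus strand) holds an E-box 60 bases before its start. Per3 (chr4:151044666-151044915, minus strand) holds a pair of D-boxes, 205 and 158 bases before it. Nfil3 (chr13:52981040-52981289, minus strand) has the core of a ROR element 12 bases before it. In Nr1d1 (chr11:98775378-98775627, minus strand) none of these letters stand in the window.
Cry1: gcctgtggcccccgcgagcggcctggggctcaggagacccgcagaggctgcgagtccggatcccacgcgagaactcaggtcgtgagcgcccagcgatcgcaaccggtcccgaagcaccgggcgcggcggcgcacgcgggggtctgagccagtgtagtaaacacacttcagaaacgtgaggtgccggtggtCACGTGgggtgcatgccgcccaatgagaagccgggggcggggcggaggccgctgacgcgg
Per3: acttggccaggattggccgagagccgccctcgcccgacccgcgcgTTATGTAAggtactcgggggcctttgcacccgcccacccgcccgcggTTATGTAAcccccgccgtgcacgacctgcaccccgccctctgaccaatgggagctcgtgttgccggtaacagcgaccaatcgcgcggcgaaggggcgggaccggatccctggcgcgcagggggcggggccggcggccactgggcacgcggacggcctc
Nfil3: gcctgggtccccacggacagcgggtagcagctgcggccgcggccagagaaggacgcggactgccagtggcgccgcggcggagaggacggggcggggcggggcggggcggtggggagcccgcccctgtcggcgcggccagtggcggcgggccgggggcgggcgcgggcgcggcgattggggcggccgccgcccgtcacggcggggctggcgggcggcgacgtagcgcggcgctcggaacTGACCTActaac
Nr1d1: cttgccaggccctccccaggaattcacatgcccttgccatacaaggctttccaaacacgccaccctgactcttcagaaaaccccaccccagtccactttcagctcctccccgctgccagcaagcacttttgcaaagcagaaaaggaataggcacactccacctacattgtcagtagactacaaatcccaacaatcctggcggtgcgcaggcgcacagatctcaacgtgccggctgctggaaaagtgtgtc

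Among the clock activators, 2 of 5 tested rose and 0 fell (median -0.10), and among 15 clock repressors and their modifiers 6 rose and 1 fell (median 0.09). Rora was among the activators that rose (0.37 ± 0.10 SE, adjusted p = 0.0145), and the repressors and modifiers that rose were Cry1, Per2, Per3, Usp2, Cry2 and Csnk1e. Per3 had 91.3 to 156 (median 117) in ZT16 lungs, against 47.0 to 103 (median 80.3) in ZT4 lungs, with overlapping groups (0.64 ± 0.15 SE, adjusted p = 0.00825). Usp2, a ubiquitin-specific protease, changed by 0.66 (adjusted p = 1.13e-05), Cry2 by 0.37 (adjusted p = 0.0114) and the kinase gene Csnk1e by 0.26 (adjusted p = 0.0028). Per1 did not pass (0.34 ± 0.33 SE, adjusted p = 0.5), nor did Clock (-0.10, adjusted p = 0.465), Ciart (0.09, adjusted p = 0.685), Bhlhe40 (0.03, adjusted p = 0.848) or Bhlhe41 (-0.19, adjusted p = 0.323).

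The PAR bZIP family was split. Dbp had 6.67 to 32.9 (median 17.4) in ZT16 lungs, against 19.5 to 83.6 (median 68.2) in ZT4 lungs. The groups overlapped through a single ZT4 lung at 19.5, and the change was -1.67 ± 0.35 (SE; adjusted p = 0.00333). Its relatives went up: Tef had 319 to 518 (median 422) in ZT16 lungs, against 209 to 419 (median 324) in ZT4 lungs, a change of 0.52 ± 0.14 (SE; adjusted p = 0.0139), and Hlf changed by 0.59 ± 0.11 (SE; adjusted p = 0.00143). Nfil3, which opposes them, had 8.67 to 17.3 (median 11) in ZT16 lungs, against 4.27 to 11 (median 7.12) in ZT4 lungs and changed by 0.77 ± 0.18 (SE; adjusted p = 0.00664), although the values of both times overlapped. Of 22 clock-controlled output genes 6 rose and 4 fell (median 0.03). Lonrf3, a ring finger gene, had 10.4 to 15.8 (median 12.9) in ZT16 lungs, against 2.28 to 4.58 (median 3.19) in ZT4 lungs, with no overlap and a change of 1.8 ± 0.13 (SE; adjusted p = 1.48e-07). The cell cycle kinase gene Wee1, a known clock target, had 12.9 to 18.1 (median 16.0) in ZT16 lungs, against 4.59 to 10.9 (median 6.24) in ZT4 lungs, likewise without overlap (1.07 ± 0.16 SE, adjusted p = 0.000231).

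Several clock genes were uneven among the ZT4 mice. Libraries ZT4 Sep1 and Sep2, named by batch and table order, had 22.3 and 28.2 for Arntl, against 10.9 to 13.7 in the other 5 ZT4 lungs and 4.74 to 18.2 in ZT16 lungs. Npas2 was at 11.7 and 16.5 in the same pair and at 4.28 to 5.37 in the other 5. Both also stood low in Per2, at 26.2 and 25.1 against 41.3 to 77.7, and in Nr1d2, at 99.3 and 93.6 against 140 to 178. Cry1 did not set the pair apart. Arntl did not pass over all mice (-0.53 ± 0.25 SE, adjusted p = 0.147, -1.02 in September and 0.12 in July), and neither did Npas2 (-0.31, adjusted p = 0.51; -0.82 in September and 0.37 in July) nor Nr1d2 (-0.44, adjusted p = 0.0909; -0.02 in September and -0.98 in July). Without both libraries, an alternative chosen after their values were seen, the changes of Nr1d2 (-0.70, adjusted p = 0.0033) and Bhlhe41 (-0.35, adjusted p = 0.047) passed, Rora at 0.31 (adjusted p = 0.0729) and Cry2 at 0.26 (adjusted p = 0.0642) no longer passed, and 5 of 15 repressors rose and 4 fell. With a single library left out, 6 of the 15 rose and 1 to 3 fell, 3 without ZT4 Sep2.

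Cytosolic chaperones, which fold client proteins and are induced through heat shock factor, were higher at ZT16 in 18 of 26 members tested and lower in 0 (median 0.45, 0.42 in September and 0.39 in July). Hspa8, the constitutive HSC70, had 1557 to 2885 (median 2162) in ZT16 lungs, against 734 to 1231 (median 972) in ZT4 lungs, with no overlap (1.1 ± 0.13 SE, adjusted p = 3.22e-05). Hsph1, a nucleotide exchange factor of HSP70, had 107 to 285 (median 163) in ZT16 lungs, against 59.9 to 85.9 (median 73.9) in ZT4 lungs. These groups did not overlap (1.28 ± 0.16 SE, adjusted p = 5.47e-05). The inducible HSP70 gene Hspa1b had 26.6 to 192 (median 67.9) in ZT16 lungs, against 7.96 to 45.0 (median 20.5) in ZT4 lungs. It spread over a wide range at both times and overlapped between them, with a change of 1.75 ± 0.40 (SE; adjusted p = 0.00657). The co-chaperones Stip1 (0.74 ± 0.09 SE, adjusted p = 5.71e-05) and Fkbp4 (0.67 ± 0.08 SE, adjusted p = 1.84e-05), which serve HSP90, rose as well. In control mice, where 8.36% of all genes passed (4.32% higher and 4.04% lower), 4 of the 26 passed, all upward, with a median of 0.27, and Hspa8 changed there by 0.66 (adjusted p = 0.0195). Control lungs spread widely in this list. Its summed level reached 16278 in the highest ZT16 control lung (median 6758) and 8549 in the highest ZT4 control lung (median 5043). How far these lungs shaped the control count was not tested. The difference between both antibody groups passed for no gene, as given below.

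Hspa1a and Hspa1b are neighbours on chromosome 17 with nearly the same sequence, so their values (1.33 and 1.75) cannot be separated with certainty. Their 250 upstream bases, at chr17:34959239-34959488 for Hspa1b and chr17:34972157-34972406 for Hspa1a (both GRCm38.p6, minus strand), are equal at 247 positions (98.8%). Each holds a heat shock element 104 bases before its start, in capitals.
Hspa1b: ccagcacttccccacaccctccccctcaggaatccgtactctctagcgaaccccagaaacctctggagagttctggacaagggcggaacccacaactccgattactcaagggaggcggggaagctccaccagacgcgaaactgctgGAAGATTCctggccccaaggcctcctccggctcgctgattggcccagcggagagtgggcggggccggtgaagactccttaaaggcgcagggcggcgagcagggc
Hspa1a: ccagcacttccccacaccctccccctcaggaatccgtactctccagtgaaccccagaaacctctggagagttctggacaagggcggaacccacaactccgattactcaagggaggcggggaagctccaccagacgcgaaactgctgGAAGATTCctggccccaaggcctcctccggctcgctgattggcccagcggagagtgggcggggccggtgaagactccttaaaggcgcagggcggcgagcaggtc

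The cold-inducible RNA-binding protein genes Cirbp and Rbm3, whose RNAs rise when temperature drops, went the other way. Cirbp had 53.7 to 80.9 (median 57.0) in ZT16 lungs, against 76.6 to 133 (median 88.8) in ZT4 lungs. A single ZT16 lung reached the ZT4 range, and the change was -0.60 ± 0.11 (SE; adjusted p = 0.00152). Rbm3 had 127 to 189 (median 146) in ZT16 lungs, against 188 to 229 (median 215) in ZT4 lungs, with a change of -0.47 ± 0.07 (SE; adjusted p = 0.000386). Both genes had -0.54 as their median in September and -0.52 in July. Genes of the unfolded protein response, the stress program of the endoplasmic reticulum, held 7 rises and 0 falls among 23, all of them small (median 0.05). Hyou1, a chaperone of that compartment, changed by 0.28 ± 0.05 (SE; adjusted p = 0.00121). This count was fragile: it was 3 without ZT16 Sep3 or ZT4 Jul1, 4 without ZT4 Sep1, ZT4 Sep2, ZT16 Sep2 or ZT4 Jul2, and 1 without both ZT4 Sep1 and Sep2. The rises among heat shock genes were 14 without that pair, and without ZT16 Jul3 18 rose and 1 fell.

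**Figure D3:**
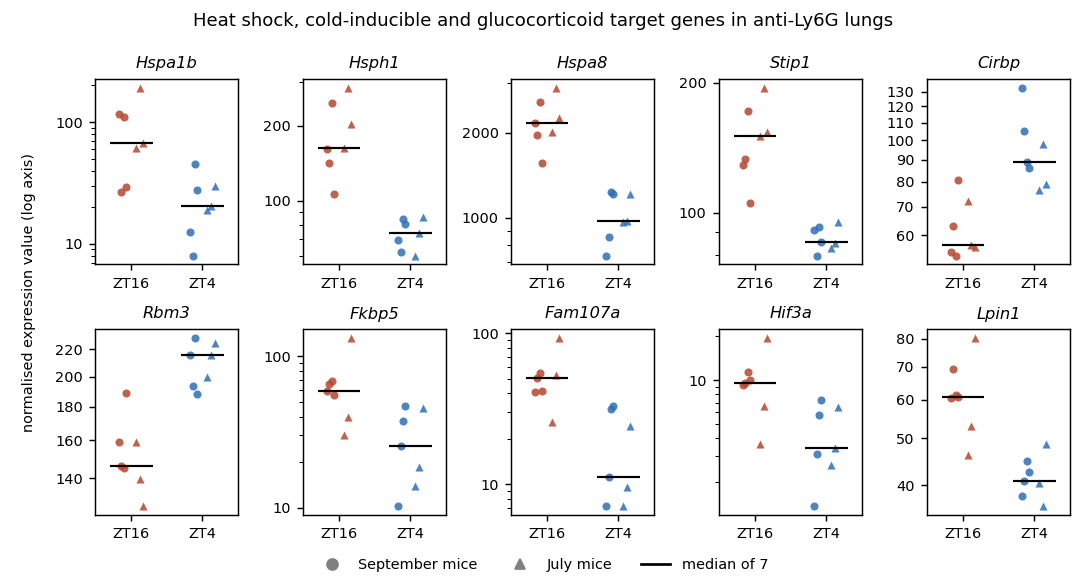
Each point is one mouse, with the normalised expression value on a logarithmic vertical axis that differs between genes; circles are September mice, triangles July mice, and the black line is the median of 7. Hsph1, Hspa8 and Stip1 are higher in every ZT16 mouse than in any ZT4 mouse, Cirbp and Rbm3 lie lower at ZT16, and Fkbp5, Fam107a and Hif3a spread widely within each time.

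Glucocorticoid targets held 4 rises and 1 fall among 21 (median 0.23, 0.15 in September and 0.17 in July), with 0 to 1 falls when 1 library was left out. Fkbp5, a co-chaperone of the glucocorticoid receptor and one of its best known targets, had 30.2 to 132 (median 59.2) in ZT16 lungs, against 10.3 to 47.2 (median 25.5) in ZT4 lungs. The groups overlapped (1.23 ± 0.34 SE, adjusted p = 0.0183). Fam107a had 25.9 to 93.5 (median 50.4) in ZT16 lungs, against 7.17 to 33.0 (median 11.1) in ZT4 lungs, with a change of 1.68 ± 0.35 (SE; adjusted p = 0.00314). Hif3a changed by 1.14 ± 0.33 (SE; adjusted p = 0.0219), and Lpin1, a phosphatidate phosphatase gene, by 0.55 ± 0.10 (SE; adjusted p = 0.00115). Mice differed within a time. ZT16 Jul3 was highest in Fkbp5 (132), Fam107a (93.5) and Hif3a (19.5), ZT16 Jul1 lowest of its group in the same 3 genes (30.2, 25.9 and 3.68), and in Fam107a ZT4 Sep3, Sep4 and Jul3 were at 31.4, 33.0 and 24.5 where the other 4 ZT4 lungs were at 7.17 to 11.1. Without ZT16 Jul1 8 of 21 rose, and without both ZT4 Sep1 and Sep2 2 did, with Fkbp5 at 0.91 (adjusted p = 0.0746) and Hif3a at 0.77 (adjusted p = 0.0987). Immediate early genes, quickly induced by handling or stimuli, held 0 rises and 2 falls among 25 (median -0.10), the falls being Junb (-0.53) and Jund (-0.22), with 1 rise without ZT16 Jul1.

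Flavin monooxygenases, which oxidise drugs and other nucleophilic compounds, rose in 4 of 5 genes tested and fell in 0 (median 0.33, 0.33 in September and 0.50 in July). Fmo2, the main form in lung, had 1757 to 2522 (median 2233) in ZT16 lungs, against 794 to 1075 (median 881) in ZT4 lungs. Every ZT16 lung exceeded every ZT4 lung, with 1.28 ± 0.08 (SE; adjusted p = 5.21e-08). Fmo1 (0.58 ± 0.07 SE, adjusted p = 5.45e-05) and Fmo5 (0.33, adjusted p = 0.0019) rose less.

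Glutathione transferases, which conjugate electrophiles, moved both ways, with 6 rises and 6 falls among 21 (median -0.08). Gsta3 had 346 to 389 (median 373) in ZT16 lungs, against 154 to 183 (median 169) in ZT4 lungs. The spread within each time was narrow and the groups lay far apart (1.13 ± 0.05 SE, adjusted p = 1.6e-10). Gsta1 (1.09 ± 0.22 SE, adjusted p = 0.00247) and Gsta2 (0.65, adjusted p = 0.000646) rose too, but the 3 alpha genes are near copies and reads may have been split among them. Gsta1 was close to the filter, with 0.847 to 1.89 in ZT16 lungs and 0.0390 to 0.741 in ZT4 lungs. It met the filter only through ZT16 lungs, so its call carries little weight. Gstm7 of the mu class fell, with 2.03 to 3.14 (median 2.55) in ZT16 lungs, against 4.26 to 6.90 (median 5.83) in ZT4 lungs (-1.01 ± 0.12 SE, adjusted p = 2.51e-05). Without ZT16 Sep2, or without both ZT4 Sep1 and Sep2, the falls were 3. Of 23 genes of the cytochrome P450 system 5 rose and 3 fell (median 0.07), among the rises Cyp2a5 (0.99 ± 0.17 SE, adjusted p = 0.000953), Cyp2b10 (0.64) and the abundant lung form Cyp4b1 (0.58).

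Reductases, dehydrogenases and conjugating enzymes held 11 rises and 4 falls among 31 (median 0.11). The carboxylesterase gene Ces1g had 19.5 to 27.9 (median 22.7) in ZT16 lungs, against 4.98 to 10.3 (median 7.29) in ZT4 lungs, without overlap (1.60 ± 0.13 SE, adjusted p = 7.62e-07). Akr1c14, an aldo-keto reductase that acts on steroids, had 79.4 to 247 (median 197) in ZT16 lungs, against 57.8 to 87.0 (median 67.9) in ZT4 lungs, with 1.62 in September and 0.98 in July (adjusted p = 0.000115 over both). Its ZT16 values reached down to 79.4 in Jul2 and into the ZT4 range. Aldh1a1, a retinal dehydrogenase, changed by 0.74 ± 0.06 (SE; adjusted p = 7.62e-07), and the mitochondrial Aldh2 by 0.55 (adjusted p = 2.31e-06). Ces1 and Akr1c genes have close paralogs, which makes the split of their reads uncertain. Genes under the antioxidant factor NRF2 had calls in both directions, with 5 rises and 3 falls among 26 (median 0.03). Whether called or not, 19 had a positive and 7 a negative change. The peroxiredoxin gene Prdx6 rose by 0.64 ± 0.07 (SE; adjusted p = 1.43e-05), Nfe2l2, which encodes NRF2 itself, by 0.26, and Me1, the malic enzyme gene, fell by 0.32 on the log2 scale.

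Fatty acid oxidation genes were lower at ZT16 in 10 of 28 members and higher in 0 (median -0.11, -0.13 in September and -0.08 in July), and in control mice lower in 11 of 28. With 1 library left out 0 to 1 rose and 8 to 10 fell. Acoxl, an acyl-CoA oxidase relative expressed in alveolar type 2 cells, had 20.3 to 28.8 (median 25.7) in ZT16 lungs, against 59.0 to 73.6 (median 67.0) in ZT4 lungs. Its groups did not overlap (-1.40 ± 0.08 SE, adjusted p = 1.47e-08). The mitochondrial carrier gene Slc25a20 (-0.34 ± 0.06 SE, adjusted p = 0.00174), the electron transfer flavoprotein gene Etfb (-0.23) and the long-chain dehydrogenase gene Acadl (-0.23) had smaller falls. Cholesterol and fatty acid synthesis held 9 rises and 1 fall among 31 (median 0.10), led by Pmvk, a kinase of the mevalonate pathway, at 0.81 ± 0.13 (SE; adjusted p = 0.000444). That fall was Hmgcs1, at the entry of the pathway, and the falls were 1 or 2 with 1 library left out. Of 28 genes of glycolysis and the hypoxia response 9 rose and 1 fell (median 0.11), with Epas1, which encodes HIF-2α, at 0.49 ± 0.08 (SE; adjusted p = 0.000295) and the glucose transporter gene Slc2a1 at 0.35. Housekeeping groups held a smaller share of calls than all genes, where 18.9% passed. Of 36 oxidative phosphorylation genes 0 rose and 2 fell (median -0.05, 1 to 3 falls with 1 library left out), and 28 had a negative change. Of 57 cytosolic ribosomal protein genes 0 passed, and 44 had a negative change. The median of that list was -0.05 (-0.08 in September, 0.02 in July, and -0.0026 without both ZT4 Sep1 and Sep2). There 3 fell without ZT16 Jul2 and 1 without ZT4 Jul1. Genes of the cell cycle and mitosis held 1 rise, Wee1, and 6 falls among 36 (median -0.24, -0.36 in September and -0.04 in July), with the mitotic checkpoint kinase gene Bub1 at -0.90 ± 0.13 (SE; adjusted p = 0.000199) and the proliferation marker Mki67 at -0.48. The falls were 3 without any 1 of ZT4 Sep1, ZT4 Jul3, ZT16 Sep1, ZT16 Sep2, ZT16 Sep3 or ZT16 Jul2. ZT4 Sep2 stood apart in this list, with a mean log2 level of 3.54, where ZT16 lungs had 2.72 to 2.85 and the other 6 ZT4 lungs 2.74 to 3.01. Without both ZT4 Sep1 and Sep2 3 fell (median -0.09).

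**Figure D4:**
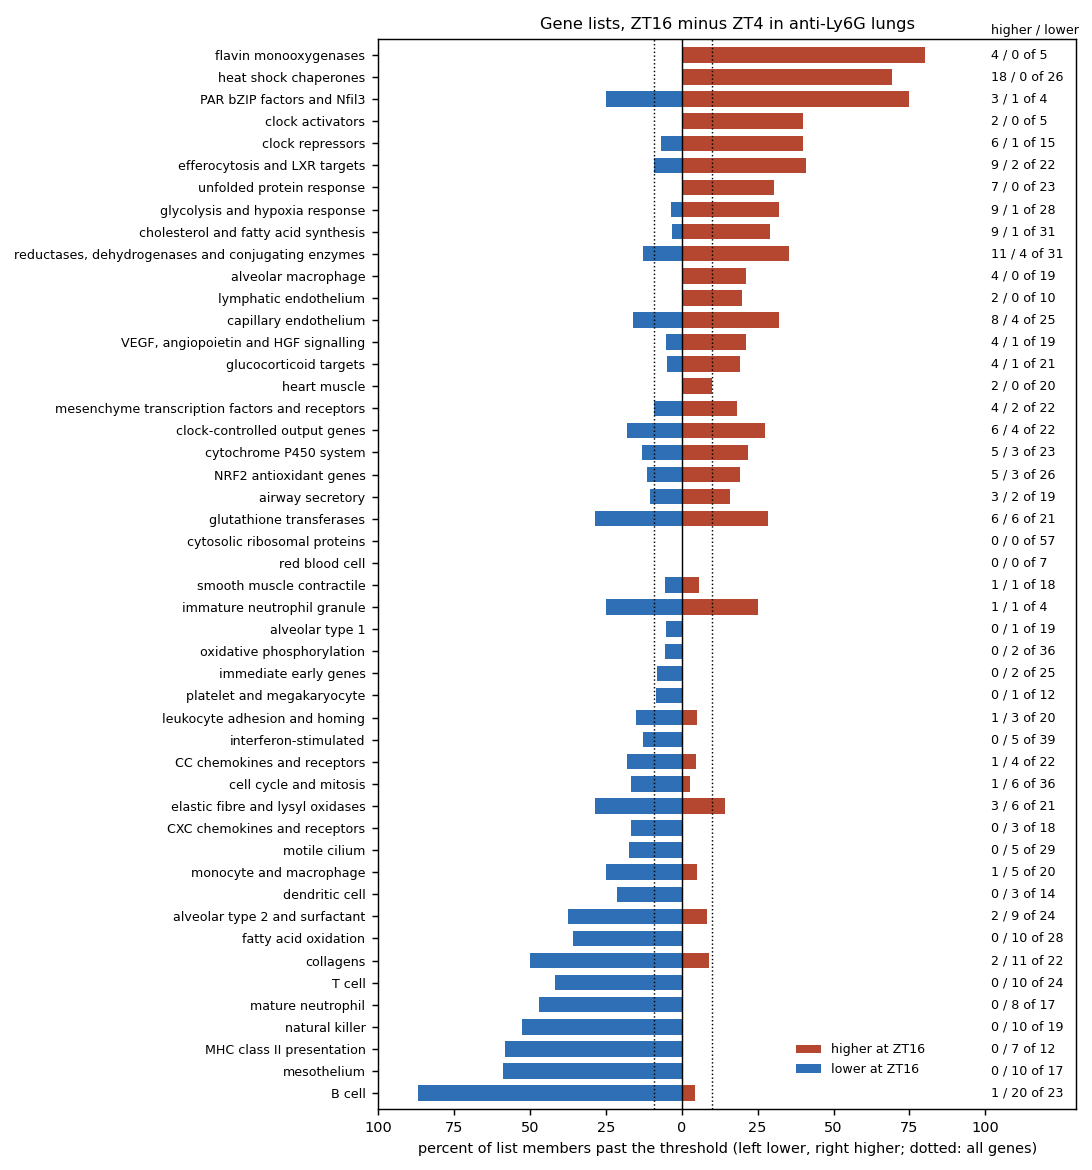
Bars give, for each gene list with at least 4 members tested, the percent of members that passed higher (red, right) and lower (blue, left) at ZT16 in anti-Ly6G lungs; the counts stand at the right and the dotted lines mark the shares over all genes, 9.83% higher and 9.11% lower. Heat shock chaperones and flavin monooxygenases lie at the top, and B cell, mesothelium, MHC class II, natural killer and mature neutrophil lists at the bottom.

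Markers of leukocytes were lower at ZT16 across several lineages. In a whole lobe fewer cells of a type and less RNA per cell cannot be told apart. Of 23 B cell genes 20 fell and 1 rose, with a median of -0.92 (-0.87 in September and -0.95 in July). Cd79b, a signalling subunit of the B cell receptor, had 6.05 to 17.0 (median 11.5) in ZT16 lungs, against 14.9 to 33.9 (median 22.7) in ZT4 lungs. The ranges overlapped (-1.09 ± 0.20 SE, adjusted p = 0.00143). Its partner Cd79a (-1.03), the immunoglobulin heavy chain genes Ighd (-1.45) and Ighm (-0.93) and the homing receptor gene Cxcr5 (-1.11) fell as well. The exception was Vpreb3, a gene of immature B cells, with 22.3 to 34.3 (median 29.3) in ZT16 lungs, against 12.4 to 15.1 (median 13.8) in ZT4 lungs (1.00 ± 0.09 SE, adjusted p = 1.04e-06). Control mice had 6 falls and 1 rise, with a median of -0.64, and Cd79b changed there by -0.70 (adjusted p = 0.0565). Without both ZT4 Sep1 and Sep2 the falls were 14 (median -0.72).

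Natural killer genes fell in 10 of 19 cases and rose in 0 (median -0.54), and T cell genes fell in 10 of 24 and rose in 0 (median -0.41). Klrd1, which encodes the CD94 receptor, had 2.41 to 5.70 (median 3.59) in ZT16 lungs, against 4.60 to 9.72 (median 6.64) in ZT4 lungs (-0.83 ± 0.17 SE, adjusted p = 0.00258). Klrb1c (NK1.1) changed by -0.70 ± 0.14 (SE, adjusted p = 0.00215), and genes of the Ly49 receptors, near copies of each other, by -1.0 (Klra3), -0.95 (Klra4) and -0.87 (Klra7). Klra3 was close to the filter, with a median of 0.193 in ZT16 lungs and 1.26 in ZT4 lungs. It met the filter mostly through ZT4 lungs, so its call carries little weight. Where a value of 5 in at least 7 libraries was required, 3 of 4 natural killer genes fell. Among T cell genes Cd8a had 2.01 to 4.52 (median 2.97) in ZT16 lungs, against 4.04 to 6.12 (median 4.76) in ZT4 lungs, overlapping at its edges (-0.64 ± 0.14 SE, adjusted p = 0.00566). Il7r (-0.43), the proximal kinase gene Lck (-0.54) and Themis (-0.76) fell too. The count of T cell genes was 6 without ZT4 Sep2, 6 without ZT16 Sep1 and 6 without both ZT4 Sep1 and Sep2, which left 6 natural killer genes and Klra3 at -0.86 (adjusted p = 0.0524). In control mice 6 natural killer genes fell and 0 rose (median -0.46).

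MHC class II presentation genes fell in 7 of 12 cases (median -0.39, -0.37 in September and -0.32 in July) and rose in 0. The list holds the modulators of peptide loading that B cells express: H2-Ob had 7.56 to 13.7 (median 11.7) in ZT16 lungs, against 17.9 to 33.1 (median 25.2) in ZT4 lungs (-1.12 ± 0.14 SE, adjusted p = 3.99e-05), and H2-Oa (-0.78) and H2-DMb2 (-0.65) fell too. Without both ZT4 Sep1 and Sep2 3 of the 12 fell. Of 20 monocyte and macrophage genes 5 fell and 1 rose (median -0.11), the falls including the monocyte genes Ly6c2 (-0.83 ± 0.20 SE, adjusted p = 0.00862), Ccr2 (-0.64) and Cx3cr1 (-0.78), and of 19 alveolar macrophage genes 4 rose and 0 fell (median 0.11). Without both ZT4 Sep1 and Sep2 3 monocyte and macrophage genes fell and the median was 0.01. The alveolar macrophage count was 2 without ZT16 Sep2 and 2 without that pair, where Abcg1 no longer passed (0.30, adjusted p = 0.0644); members of small p were the cholesterol exporter gene Abcg1 (0.35 ± 0.09 SE, adjusted p = 0.0131) and Car4 (0.34), which capillary cells also express. Dendritic cell genes held 3 falls and 0 rises among 14 (median -0.25), with the actin-bundling gene Fscn1 at -0.57 ± 0.11 (SE; adjusted p = 0.00161); the falls were 1 without ZT4 Sep2, ZT4 Jul1 or that pair.

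Several neutrophil genes were also lower at ZT16. Of 17 mature neutrophil genes 8 fell and 0 rose (median -0.45, -0.59 in September and -0.28 in July). Clec4e of this list was at 0.592 to 0.954 in ZT16 lungs and 0.494 to 3.31 in ZT4 lungs. It met the filter only through ZT4 lungs, so its call carries little weight. Where a value of 5 in at least 7 libraries was required, 4 of 10 genes fell. S100a8 had 3.36 to 6.12 (median 4.21) in ZT16 lungs, against 4.88 to 12.5 (median 7.88) in ZT4 lungs. The groups overlapped a little (-0.77 ± 0.19 SE, adjusted p = 0.00992), as they did for its partner S100a9 (-0.70, adjusted p = 0.0196). Hdc, the histidine decarboxylase gene that makes histamine and is also high in mast cells and basophils, had 38.8 to 53.6 (median 45.9) in ZT16 lungs, against 76.7 to 101.6 (median 87.8) in ZT4 lungs. Every ZT16 lung was below every ZT4 lung (-0.89 ± 0.07 SE, adjusted p = 7.62e-07). Csf3r, the receptor gene for G-CSF, did not pass (-0.37 ± 0.15 SE, adjusted p = 0.0946), nor did Cxcr2 (-0.11, adjusted p = 0.588). The mean log2 level of the list was 2.31 to 2.68 in ZT16 lungs and 2.39 to 3.32 in ZT4 lungs, and without both ZT4 Sep1 and Sep2 the falls were 3 (median -0.31) and S100a9, at -0.42 (adjusted p = 0.102), no longer passed. In control mice, taken from the fit of 28 libraries, the list had 3 falls and a median of -0.89. In that same fit 2 genes of the list fell in anti-Ly6G mice, so the 8 falls above are not a like count. The highest ZT4 control lung had a mean log2 level of 5.51 over the list, where the median of its group was 3.13. A fit of the control change without that lung was not made.

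**Figure D5:**
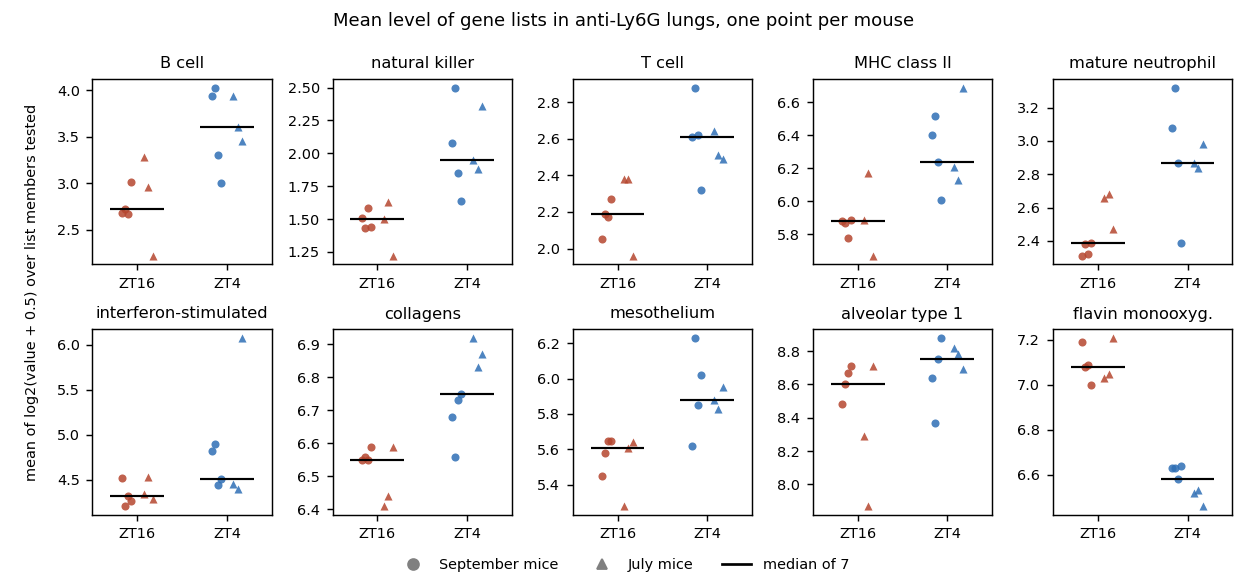
Each point is one mouse, with the mean of log2(value + 0.5) over the tested members of a gene list on a vertical axis that differs between lists; circles are September mice, triangles July mice, and the black line is the median of 7. Lymphocyte, MHC class II, collagen and mesothelium means lie lower at ZT16, flavin monooxygenase means do not overlap, a single July ZT4 mouse is high in interferon-stimulated genes, and a pair of July ZT16 mice is low in alveolar type 1 genes.

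Interferon-stimulated genes held 5 falls and 0 rises among 39 (median -0.40, -0.27 in September and -0.50 in July). One ZT4 mouse, Jul3, had a mean log2 level of 6.08 over the list, against 4.40 to 4.90 in the other 6 ZT4 lungs. Gbp6 (ENSMUSG00000104713), a guanylate-binding protein gene, was at 268 in that lung and at 26.2 to 59.1 in the other 6, while ZT16 lungs had 13.4 to 26.1. Even so all ZT16 values lay below all ZT4 values (-1.36 ± 0.37 SE, adjusted p = 0.0164). Its exons share 1726 bases with another gene. Mx1, an antiviral GTPase gene, had 3.32 to 4.83 (median 4.23) in ZT16 lungs, against 4.34 to 8.87 (median 5.70) in ZT4 lungs (-0.48 ± 0.13 SE, adjusted p = 0.0177). Without ZT4 Jul3 the list had 7 falls and 1 rise with a median of -0.15. The falls were 8 without ZT4 Jul1, 9 without ZT4 Sep4, 10 without ZT4 Jul2, 3 without ZT4 Sep1 or ZT16 Jul1, and 2 without both ZT4 Sep1 and Sep2, where neither Gbp6 (-1.24, adjusted p = 0.0663) nor Mx1 (-0.40, adjusted p = 0.0856) passed.

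Among chemokine and adhesion lists 3 of 18 CXC genes, 4 of 22 CC genes and 3 of 20 adhesion and homing genes fell, where 9.11% of all genes did, and 0 CXC, 1 CC and 1 adhesion gene rose. With 1 library left out 3 to 5 CC genes and 2 to 5 adhesion genes fell and 0 to 2 CC genes rose, and without both ZT4 Sep1 and Sep2 2 CC genes fell and 2 rose. Cxcl15 (lungkine, ENSMUSG00000029375, GRCm38 chromosome 5, 90794534 to 90803067), a chemokine gene of the lung epithelium, had 401 to 536 (median 490.4) in ZT16 lungs, against 1104 to 1432 (median 1261) in ZT4 lungs. Every ZT16 lung was below every ZT4 lung, with a change of -1.42 ± 0.08 (SE; adjusted p = 2.52e-09). The interferon-induced Cxcl10 was close to the filter, with 0.227 to 2.04 (median 0.860) in ZT16 lungs, against 1.62 to 6.20 (median 2.15) in ZT4 lungs (-1.16 ± 0.27 SE, adjusted p = 0.00678). Jam2, a junctional adhesion gene of vessels, rose (0.52 ± 0.07 SE, adjusted p = 6.86e-05), and the integrin gene Itga4 fell (-0.44 ± 0.09 SE, adjusted p = 0.0041).

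Among epithelial lists, 9 of 24 alveolar type 2 and surfactant genes fell and 2 rose (median -0.05). Besides Cxcl15 and Acoxl, the calcium-binding protein gene S100g (-0.63 ± 0.09 SE, adjusted p = 0.000126) and Lpcat1 (-0.32 ± 0.06 SE, adjusted p = 0.000869), which makes surfactant phospholipid, fell. Levels of Sftpc, given above, overlapped between the times. Without ZT4 Jul1 4 genes of the list rose and 8 fell. Alveolar type 1 genes held 1 fall and 0 rises among 19 (median -0.17, 0.0037 in September and -0.39 in July). That fall was Itgb6, the integrin subunit that helps activate latent TGF-β, with 17.2 to 38.1 (median 28) in ZT16 lungs, against 55.8 to 64.5 (median 61.6) in ZT4 lungs (-1.15 ± 0.13 SE, adjusted p = 1.49e-05). The list rested on few libraries: ZT16 Jul1 and Jul2 had means of 8.29 and 7.87 against 8.48 to 8.71 in the other 5 ZT16 lungs, and 5 genes fell without ZT16 Jul3, 4 without ZT4 Sep2, and 5 without both ZT4 Sep1 and Sep2. Airway secretory genes held 3 rises and 2 falls among 19 (median -0.02), and motile cilium genes 0 rises and 5 falls among 29 (median -0.12). The airway secretory falls were 1 without any 1 of the 8 September libraries, ZT4 Jul3 or ZT16 Jul3, and without both ZT4 Sep1 and Sep2 4 genes of that list rose and 1 fell (median 0.07), while 3 motile cilium genes fell. Krt15, a basal cell keratin gene, rose (1.40 ± 0.33 SE, adjusted p = 0.00687), and Retnla, a secreted resistin-like gene, fell (-0.75 ± 0.15 SE, adjusted p = 0.00215). The ciliary dynein gene Dnah12 changed by -0.44 ± 0.10 (SE; adjusted p = 0.0074).

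Capillary endothelial genes moved both ways, with 8 rises and 4 falls among 25 (median 0.07), and lymphatic genes held 2 rises among 10 (median 0.10; 1 or 2 rises with 1 library left out). Lyve1, a hyaluronan receptor of lymphatic vessels that some macrophages also carry, had 334 to 417 (median 385) in ZT16 lungs, against 124 to 220.0 (median 189) in ZT4 lungs, without overlap (1.07 ± 0.09 SE, adjusted p = 1.08e-06). Eng (endoglin, a TGF-β co-receptor) rose (0.60 ± 0.09 SE, adjusted p = 0.000191), as did the VEGF receptor gene Flt1 (0.48) and the angiopoietin receptor gene Tek (0.40). The apelin receptor gene Aplnr (-0.69 ± 0.12 SE, adjusted p = 0.000661) and Emcn (-0.63 ± 0.08 SE, adjusted p = 3.08e-05) fell. In the list of efferocytosis genes and LXR targets 9 of 22 rose and 2 fell (median 0.14), with the phagocytic receptor gene Mertk at 0.39 ± 0.09 (SE; adjusted p = 0.00713) and Nr1h3, which encodes LXRα, at 0.33; 6 rose without ZT16 Sep1, and the falls were 1 to 2 with 1 library left out.

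Collagen genes were lower at ZT16 in 11 of 22 cases and higher in 2 (median -0.21, -0.09 in September and -0.37 in July), and of 21 genes of elastic fibres and lysyl oxidases 6 fell and 3 rose (median -0.08). Col3a1 of fibrillar collagen had 397 to 506 (median 430.1) in ZT16 lungs, against 621 to 780.2 (median 723) in ZT4 lungs (-0.67 ± 0.06 SE, adjusted p = 1.37e-06). Col1a1 changed by -0.48 ± 0.05 (SE; adjusted p = 2.31e-06) and Col5a3 by -1.13 ± 0.10 (SE; adjusted p = 1.26e-06). Loxl1, which crosslinks elastin, had 50.7 to 66.1 (median 56.2) in ZT16 lungs, against 96.1 to 116 (median 110.5) in ZT4 lungs. All 7 ZT16 lungs lay below all ZT4 lungs (-0.92 ± 0.07 SE, adjusted p = 1.28e-07). Fbn1 (fibrillin) changed by -0.51 ± 0.07 (SE; adjusted p = 8.81e-05), although its exons share 2442 bases with other genes, and Ltbp4 rose (0.37 ± 0.06 SE, adjusted p = 0.000701). Without ZT4 Jul2 the collagen falls were 8, and the rises were 1 or 2 with 1 library left out.

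Mesothelial genes, markers of the lining of the lobe, fell in 10 of 17 cases and rose in 0 (median -0.43, -0.44 in September and -0.47 in July), against 1 fall in control mice. Lrrn4 had 12.9 to 23.4 (median 19.5) in ZT16 lungs, against 24.2 to 42.6 (median 33.3) in ZT4 lungs (-0.80 ± 0.14 SE, adjusted p = 0.000928), Upk3b (uroplakin) changed by -0.52 ± 0.10 (SE; adjusted p = 0.00213) and Gpm6a by -0.64 ± 0.12 (SE; adjusted p = 0.00157). The summed level of the list was 1967 to 2411 in ZT16 lungs and 2231 to 4065 in ZT4 lungs. Smooth muscle (1 rise and 1 fall of 18), heart muscle (2 and 0 of 20) and red blood cell genes (0 and 0 of 7) had these counts against 9.83% higher and 9.11% lower over all genes. With 1 library left out, smooth muscle held 1 to 2 rises (2 without ZT4 Sep3, ZT16 Sep3 or ZT16 Sep4) and 0 to 2 falls (0 without ZT4 Sep3, ZT4 Jul3 or ZT16 Sep2, and 2 without ZT4 Sep2, ZT4 Jul1 or ZT16 Jul1). Heart muscle held 2 rises without ZT4 Sep1, ZT4 Jul2, ZT16 Sep1 or ZT16 Jul3 and 1 without any other library, with 1 fall without ZT16 Jul1. Red cell RNA varied among mice, with Hbb-bs at 19.8 to 177 (median 54.4) in ZT16 lungs, against 13.9 to 109 (median 42.1) in ZT4 lungs. Of 12 platelet genes 1 fell, the integrin gene Itgb3 (-0.56 ± 0.09 SE, adjusted p = 0.000444).

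Other large changes stood outside these lists. Cys1 (cystin, a protein of the ciliary membrane) had 46.0 to 55.6 (median 48.9) in ZT16 lungs, against 11 to 21.1 (median 16.1) in ZT4 lungs. No ZT16 lung fell into the ZT4 range (1.64 ± 0.10 SE, adjusted p = 3.05e-08). Sec14l2, a lipid-binding protein gene, changed by 1.15 ± 0.09 (SE; adjusted p = 6.62e-07), and Adgrl3, an adhesion receptor of the latrophilin family whose exons share 1582 bases with another gene, by 1.17 ± 0.10 (SE; adjusted p = 6.62e-07). Among the falls, the sodium channel gene Scn3a had 11.7 to 20.1 (median 17.9) in ZT16 lungs, against 34 to 48.8 (median 38.4) in ZT4 lungs. Its groups did not overlap (-1.20 ± 0.11 SE, adjusted p = 1.89e-06). Colq, which anchors acetylcholinesterase, had 13.1 to 23.1 (median 17.6) in ZT16 lungs, against 32.0 to 43.9 (median 40.0) in ZT4 lungs (-1.13 ± 0.12 SE, adjusted p = 1.41e-05), the calcium channel gene Cacna1d changed by -0.82 ± 0.08 (SE; adjusted p = 3.51e-06), Il18r1, a subunit of the IL-18 receptor, by -0.82 ± 0.10 (SE; adjusted p = 3.23e-05), and Pkhd1l1 by -0.95 ± 0.18 (SE; adjusted p = 0.00154). Other genes of very small p were the sialyltransferase gene St6galnac3 (-1.28 ± 0.09 SE, adjusted p = 7.79e-08), the vitamin B12 carrier gene Tcn2 (0.87 ± 0.06 SE, adjusted p = 1.97e-07), the guanine nucleotide exchange factor gene Kalrn (0.84 ± 0.07 SE, adjusted p = 7.62e-07) and the transporter gene Abca8a (0.68 ± 0.06 SE, adjusted p = 1.08e-06). Of the 30 largest changes of well expressed genes, 21 had no overlap between the times and 30 kept their call with any 1 library left out. These genes were selected for passing and for large changes in the same libraries, which favours both counts.

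Motif letters in the 250 upstream bases, searched on both strands, were set beside these calls as a description. The E-box (CACGTG) stood in 8.96% of 1216 higher genes with a promoter sequence, 9.94% of 1077 lower genes and 9.28% of all 11546. The D-box (TTATGTAA or TTACATAA) stood in 16 higher (1.32%) and 11 lower genes (1.02%), against 0.702% of all. The ROR element core (TAGGTCA) was held by 1.81% of higher, 2.79% of lower and 2.06% of all genes, the heat shock element (GAANNTTC) by 5.84% of higher, 5.85% of lower and 6.06% of all genes, and the sterol element (TCACNCCAC) by 2.22% of higher, 1.39% of lower and 1.24% of all genes. The shares of the antioxidant (TGACNNNGC), interferon and cyclic AMP (TGACGTCA) elements were 14.4%, 3.12% and 2.55% of higher genes, 13.8%, 4.36% and 1.49% of lower genes, and 13.9%, 3.32% and 2.91% of all genes. Of 20 heat shock list genes with a promoter sequence, 7 held the heat shock element.

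Both batches showed the time difference on their own. September mice alone gave 1457 calls, of which 1272 were shared with the same sign with the 3073, July mice alone gave 449, of which 416 were shared, and 289 genes passed in each batch alone. Of the 3073 genes 3072 changed in the same direction in September and in July, which a call on both batches pooled favours. The difference of the time change between the batches, tested as an interaction, passed for 1 gene (0.00616%), with 1293 (7.97%) at an unadjusted p under 0.05. That gene was Gm38287, an unnamed locus whose exons share 2051 bases with other genes. It was at 1.25 to 2.19 in September and 11.9 to 14.9 in July among ZT16 lungs, and at 0.754 to 2.32 in September and 0.0541 to 0.266 in July among ZT4 lungs. The interaction, September minus July, was -4.18 (adjusted p = 5.43e-05), and the next gene had an adjusted p of 0.344. Without ZT16 Jul3 the interaction passed for 111 genes, and without ZT4 Sep3 or ZT16 Sep1 for 2, so a count of batch differences rests on single mice.

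In control IgG mice the same contrast passed for 1396 genes of 16707 (8.36%), 721 higher (4.32%) and 675 lower (4.04%). This count is from the fit of 28 libraries, in which 3329 genes passed in anti-Ly6G mice. The control mice and the anti-Ly6G mice shared batches but no animals. Of the 30 largest changes in anti-Ly6G mice, 30 had the same sign in control mice and 23 passed there. Cry1 changed by 1.83 in anti-Ly6G and 1.51 in control mice. Fmo2 changed by 1.28 in anti-Ly6G and 1.02 in control mice. For Hspa8 the changes were 1.1 in anti-Ly6G and 0.66 in control mice, for Cd79b -1.09 in anti-Ly6G and -0.70 in control mice, and for Cxcl15 -1.42 in anti-Ly6G and -1.31 in control mice. All were picked with their changes in anti-Ly6G mice known, which favours a larger change there than in control mice. The difference of the time changes, anti-Ly6G minus control, passed for no gene (0%; limma on 28 libraries, lowest adjusted p = 0.875), with 932 genes (5.58%) at an unadjusted p under 0.05. The larger count of calls after anti-Ly6G, and the larger counts of heat shock, B cell and mesothelial genes, are thus not shown to be a difference between the antibodies in any gene.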

How the data were processed

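Messenger RNA of left lung lobes was amplified with the Ovation Single Cell kit and made into libraries with an Illumina TruSeq kit, per the labels' protocols. The submitters' processing notes name the tools kallisto 0.43.1, RSEM 1.2.20, cutadapt and CASAVA 1.8.2 and the build GRCm38, with no role for any. The authors deposited a single table of normalised expression values per gene and library, a signal with no value below 0. It has 22211 genes, 0 zeros and a lowest value of 0.00638. The sources used here do not give the normalisation, any batch adjustment or the use of strand. Over genes, the batch difference divided by its standard error had an SD of 0.861 and the time difference one of 2.51, and values that had been aligned between batches would make standard errors too small. Read depth is unknown, so no counting interval is given.

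Columns named a group and a batch but no single labelled mouse. Libraries therefore carry a group, a batch and a number in table order. Every library was treated as 1 mouse, and nothing else says that the mice were independent.

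A gene was kept if its value reached 1 in 3 or more of the 14 libraries (16226 genes, with 5985 removed). The test was that of limma 3.58.1 (R 4.3.3), with its mean-variance trend and a batch term, on log2(value + 0.5), with 11 residual degrees of freedom. It was two-sided, with Benjamini-Hochberg adjustment over all genes kept and a threshold of 0.05. The same model gave the time by batch interaction. A fit on the 28 anti-Ly6G and control libraries (16707 genes, 23 residual degrees of freedom) gave the time by antibody interaction, the control time change and the antibody differences. Fold changes on this scale understate changes of low genes. On simulated data with 200 changed genes among 16226, the time test recovered 62% of log2 changes of 0.5 and 92% of changes of 1.0, with 9 false calls. The simulated noise was independent between genes, and far more genes, 3073, were called in the data. Both the recovered share and the number of false calls depend on these settings, so they do not carry over to the data.

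Lists are described by counts and medians, with no set test. Members, lists and tests were chosen with earlier results of these data known. Named genes are the 15 largest rises and falls among well expressed genes that passed with one sign in both batches, all clock genes, in each list the 4 of smallest p at most and any passing member with a change of at least 1, the 8 genes of smallest p per interaction, 7 neutrophil genes and 10 further genes of smallest p. A few genes selected in this way are left out of the text. Hmgcs1 is outside that rule and was named after its value was seen. Promoters are from RefSeq (GRCm38.p6) and gene coordinates from GENCODE M21 (GRCm38). Alternatives were another pseudocount, filter, scaling, prior, batch term and set of libraries, each library left out, each batch alone and, chosen after seeing the data, both ZT4 libraries Sep1 and Sep2 left out.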

Additional observations from a re-analysis of the deposited data

Results flagged for a closer look

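In 5 of 98 gene and group pairs of clock genes and largest changes, 1 of 7 mice stood apart from the other 6, with a gap over the group's range, both taken on the log2(value + 0.5) scale, above the 95% critical value of Dixon's test; chance gives about 1 in 20. As normalised values, ZT16 Jul1 had 61.52 for Per1, where the next lowest ZT16 lung had 153 (log2 gap 0.744 of the log2 range), and 14.46 for Pkhd1l1, where the next had 21.6 (0.599). ZT16 Jul3 had 46.76 for Bhlhe40, against 60.9 in the next (0.811). Among ZT4 lungs, Sep1 had 35.91 for Per1, against 124 in the next (0.767), and Sep2 had 19.52 for Dbp, against 45.3 in the next (0.576). The time change of Gm38287 differed between September and July by -4.179 on the log2 scale, by a test of the difference itself (limma adjusted p = 5.43e-05).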

How the results depend on the processing

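No paired analysis was possible because the columns carry no replicate number that the labels give. The 3073 calls became 1457 with September mice alone (859 higher, 598 lower) and 449 with July mice alone (253 higher, 196 lower), fits with fewer samples. Changes over 2-fold numbered 91, but 165 with a pseudocount of 0.1 and 60 where a value of 5 in 7 libraries was required. With 1 library left out, calls ranged from 2428 to 3153 (1256 to 1598 higher, 1164 to 1558 lower), over 2-fold changes from 78 to 117, batch interaction calls from 1 to 111 (111 without ZT16 Jul3) and antibody interaction calls from 0 to 0. The batch interaction gave 0 genes with the stricter filter. Without both ZT4 Sep1 and Sep2 there were 2198 calls, 1146 higher and 1052 lower. A count test such as DESeq2 could not be used, as the values are not counts. No result changed its sign while called. List medians of NRF2 genes (-0.02 under quantile normalisation) and of other lists near 0 depended on the scaling, and under that normalisation 3 unfolded protein response genes rose and 2 fell. With the stricter filter fewer list members were tested, and 5 of 11 T cell, 3 of 4 natural killer and 4 of 10 mature neutrophil genes fell. In the fit of 28 libraries 2 of 17 mature neutrophil and 12 of 39 interferon-stimulated genes fell. The causes were not tested. Depth cannot be judged from these values.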
